A study of Oryza sativa with 9 samples.

Results

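In spikelets of rice (Oryza sativa) segregating at f5, the transcripts analysed here were those whose deposited description placed them in the ubiquitin system, meaning ubiquitin itself, its activating and conjugating enzymes, ubiquitin ligases with F-box proteins, the COP9 signalosome, the proteasome and deubiquitinases. They were found by searching the KEGG Orthology text of the authors' 3 deposited tables of differential expression for the words ubiquitin, proteasome, F-box, cullin and COP9. Of the 832 transcripts of 727 loci in these tables, 32 transcripts of 29 loci were members. The search left out 1 further locus by words in its text, 4 loci on chromosome 5 and 1 locus by its identifier. The series compared BC14F2 plants, a selfed generation after repeated backcrossing, with the heterozygous genotype f5-i/j, the homozygous genotype f5-i/i or the homozygous genotype f5-j/j, 3 samples each. The study asked which pathways underlie male sterility of hybrids between rice subspecies that is caused by f5. All 3 genotypes share the tissue, spikelets, and no treatment or plant age is given in the labels, which are also silent on whether replicates of a genotype are separate plants. Spikelets mix hull and reproductive tissue, so fewer cells of a type and less RNA per cell cannot be told apart. Of 8 marker loci for floral organs and tapetum, 2 were in the authors' deposited tables, which hold only transcripts that differed, so the tissue label could not be checked from them.

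Ubiquitin is a small protein that is linked to other proteins to mark them, often for breakdown. An activating enzyme (E1) charges it, a conjugating enzyme (E2) carries it, and a ligase (E3) selects the target. The proteasome then unfolds and cuts the marked protein, and deubiquitinases take ubiquitin off again. Cullin ligases use F-box proteins to recognise targets, are switched on by the ubiquitin-like protein NEDD8 and are switched off by the COP9 signalosome, which removes NEDD8. In plants this machinery turns over repressors in hormone and light signalling and acts in gametophyte development.

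Each value called an average below is the authors' mean of the 3 samples of a genotype, in a unit that the deposited tables do not state. No value of a single sample was analysed here, so no average has an error, the depth is unknown, and no difference could be set against the spread between replicates. A transcript was listed where its probability of differential expression in the authors' deposited table reached 0.8, which is not a p-value. For the members these probabilities lay between 0.803 and 0.980. The smallest average in the tables is 0.01, called the floor below, which was read as not detected, and folds against it are not given. Each average belongs to a single transcript model. Models that were not listed have no average here, so a model at the floor does not show that its locus was undetected. A genotype's average is known only where the transcript was listed in a comparison that includes it, which gave 3 averages for 19 of the 32 transcripts and 2 averages for the other 13.

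The descriptions differ in how firmly they name a gene. For 18 transcripts of 17 loci the deposited similarity match had an E-value (the number of equally good matches that chance would give) of at most 1e-50, and these are called close matches. The other 14 transcripts, of 12 loci, had E-values between 1e-40 and 3e-06, so their names are less certain, and they are called distant matches. The limit of 1e-50 was chosen after the E-values were seen. Of the 32 transcripts, 15 had a rice entry as their best match.

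Members were listed in both directions in each comparison. For f5-i/j spikelets against f5-i/i, 8 of the 29 loci (27.6%) were higher and 5 (17.2%) lower in f5-i/j spikelets in the authors' deposited table, and 1 had transcripts going both ways. Among all 727 loci, 30.9% were listed higher and 26.1% lower there, and 12 loci went both ways. For f5-i/j spikelets against f5-j/j, 8 loci (27.6%) were higher and 10 (34.5%) lower in f5-i/j spikelets in the authors' deposited table, beside 19.1% and 22.8% of all loci. No member locus went both ways there, beside 8 of all loci. In the authors' deposited table for the homozygotes, 6 loci (20.7%) were listed higher and 6 (20.7%) lower in f5-i/i relative to f5-j/j, and 2 went both ways. Of all 727 loci, 23.1% were higher and 27.9% lower in that table, and 8 loci went both ways. Every member had to be listed somewhere to be found, so these shares describe how the listings fall and were not tested.

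The members' listed differences were often between detection and none, as were those of all loci in the tables. Models of a locus with the same length and identical averages are counted once here, which leaves 31 measurements of members and 789 in all. Of the 15, 18 and 16 member measurements in the authors' deposited tables, in the order of comparisons above, 9, 10 and 9 had the floor in 1 genotype. These are 60.0%, 55.6% and 56.2%, beside 48.9%, 58.8% and 52.6% of all listed measurements. Among the other 6, 8 and 7 of the members the median fold was 28.4, 7.09 and 10.6, while among all listed measurements above the floor it was 7.10, 6.76 and 6.71. Of the 6 in the first comparison, the close matches were LOC_Os04g53620.1 at 4.62-fold and LOC_Os08g42540.2 at 4.70-fold. The larger folds, from 28.4 to 44.2, were all of distant matches, so the median of 28.4 rests on transcripts with uncertain names. With members above the floor alone, loci were 4 higher and 2 lower, 2 higher and 6 lower, and 2 higher and 5 lower in the genotype named first. All loci above the floor leaned the same way in each comparison, with 122 higher and 90 lower, 46 higher and 79 lower, and 75 higher and 102 lower. With close matches alone, the members were 4 and 2, 5 and 5, and 5 and 3, and all loci with a close match were 105 and 104, 71 and 96, and 96 and 89.

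**Figure D1:**
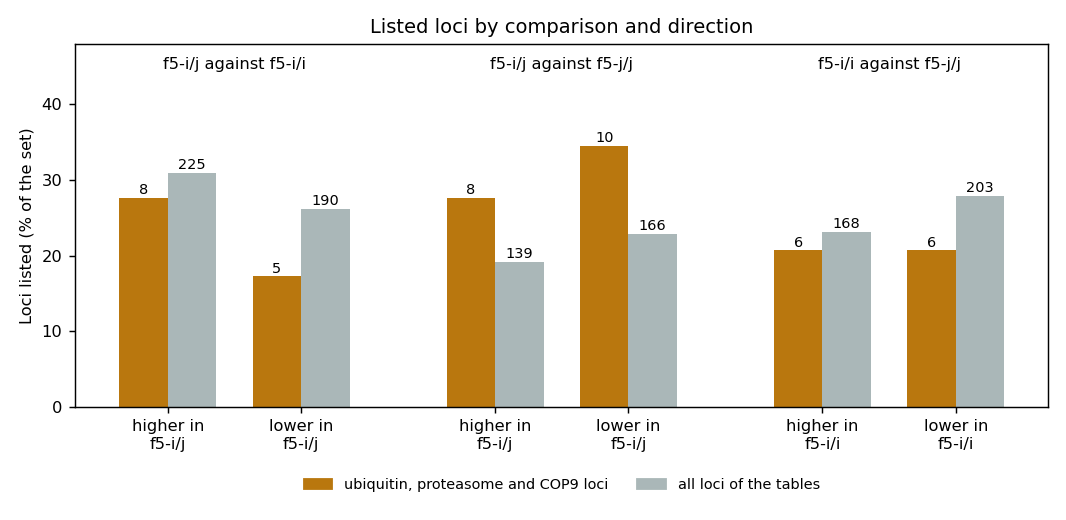
Bars show the loci listed higher or lower in the genotype named first, as a percentage of the 29 ubiquitin, proteasome and COP9 loci and of all 727 loci in the authors' deposited tables, with the number of loci above each bar and without loci going both ways. The members' bars stand above those of all loci in both directions for f5-i/j spikelets against f5-j/j and below them in the other comparisons.

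Ubiquitin itself is made from polyubiquitin genes, whose product is cut into single ubiquitin units, and 2 such loci were listed, both described as ubiquitin C by close matches. LOC_Os04g53620.1 averaged 131 in f5-i/j spikelets, 28.4 in f5-i/i spikelets and 98.3 in f5-j/j spikelets, and 131 is the largest average of any member. It was thus low in f5-i/i spikelets, being 4.62-fold higher in f5-i/j than in them and 3.46-fold lower in them than in f5-j/j, while f5-i/j differed from f5-j/j by 1.34-fold and was not listed against it. A shorter transcript model of the same locus, LOC_Os04g53620.4, averaged 3.67 in f5-i/j spikelets and 5.80 in f5-i/i spikelets and stood at the floor in f5-j/j spikelets. The 2 models therefore went opposite ways between the homozygotes. The other polyubiquitin locus, LOC_Os06g46770.6, stood at the floor in f5-i/j spikelets and averaged 5.85 in f5-i/i spikelets and 4.79 in f5-j/j spikelets. Polyubiquitin genes consist of near-identical repeats, so the division of reads among their loci and models is uncertain.

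Both activating enzymes were close matches to rice entries, and their listed models were detected in f5-i/j and f5-i/i spikelets but not in f5-j/j spikelets. The ubiquitin-activating enzyme E1 (LOC_Os07g49230.1), which starts the whole chain, averaged 3.93 in f5-i/j spikelets and 3.69 in f5-i/i spikelets, a 1.07-fold difference, and stood at the floor in f5-j/j spikelets. The B subunit of the enzyme that activates SUMO (LOC_Os07g39780.1), a ubiquitin-like modifier, averaged 7.09 in f5-i/j spikelets and 4.83 in f5-i/i spikelets, a 1.47-fold difference, and stood at the floor in f5-j/j spikelets.

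The 4 conjugating enzymes were all close matches, and each was listed with a different pattern. E2 M (LOC_Os10g11260.2), the enzyme that carries NEDD8 to cullins, stood at the floor in f5-i/j spikelets, averaged 18.8 in f5-i/i spikelets and stood at the floor again in f5-j/j spikelets. Its probabilities in the authors' deposited tables, 0.975 against either genotype, were among the highest of the members. E2 W (LOC_Os12g44000.2), known in mammals for attaching ubiquitin to the start of proteins, stood at the floor in f5-i/j spikelets and averaged 10.6 in f5-j/j spikelets. E2 D (LOC_Os04g57220.4), which works with many ligases, stood at the floor in f5-i/i spikelets and averaged 4.99 in f5-j/j spikelets. The E2 variant (LOC_Os04g58800.2), of a kind that lacks the catalytic cysteine and assists another E2, averaged 44.0 in f5-i/j spikelets and 13.1 in f5-j/j spikelets, a 3.36-fold difference. It was the only conjugating enzyme of the 4 whose known averages were both above the floor.

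Of the 9 loci described as ligases, 5 were lower and 0 higher in the heterozygote in the authors' deposited table for f5-i/j spikelets against f5-j/j, where 22.8% of all loci were lower and 19.1% higher. In that for the homozygotes, 4 of the 9 were lower and 0 higher in f5-i/i spikelets, beside 27.9% and 23.1% of all loci. For the heterozygote against f5-i/i spikelets, the authors' deposited table had 2 higher and 2 lower, beside 30.9% and 26.1% of all loci. The role holds few loci and these counts were not tested. Both comparisons with f5-j/j use the same f5-j/j averages and are not independent, and 5 of the 9 ligase loci were distant matches.

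Among ligases with close matches, RGLG (LOC_Os08g04130.3), of a RING ligase family studied in Arabidopsis, stood at the floor in f5-i/j spikelets and in f5-i/i spikelets and averaged 4.49 in f5-j/j spikelets. MUL1 (LOC_Os07g45350.5), a membrane-anchored RING ligase of mitochondria in mammals, averaged 3.60 in f5-i/j spikelets and 20.3 in f5-j/j spikelets, a 5.65-fold difference. EL5 (LOC_Os02g35329.1), by name a RING ligase known in rice as responsive to a fungal elicitor, averaged 1.22 in f5-i/i spikelets and 13.0 in f5-j/j spikelets, a 10.6-fold difference. Its probability of 0.803 in the authors' deposited table was the lowest of the members and only just inside the limit of 0.8. Synoviolin (LOC_Os06g19680.2), also called HRD1, marks misfolded proteins at the endoplasmic reticulum. It averaged 5.66 in f5-i/j spikelets and stood at the floor in f5-i/i spikelets, and its average in f5-j/j spikelets is not known here.

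Among the distant matches, the transcript described as RNF115 or RNF126 (LOC_Os07g43740.1), RING ligases, averaged 1.43 in f5-i/j spikelets, 63.3 in f5-i/i spikelets and 31.5 in f5-j/j spikelets. It was low in the heterozygote, by 44.2-fold against f5-i/i and 22.0-fold against f5-j/j, and the homozygotes differed by 2.01-fold and were not listed. The transcript described as HERC4 (LOC_Os01g62810.2), a ligase of the HECT type, averaged 8.45 in f5-i/j spikelets, 3.67 in f5-i/i spikelets and 34.3 in f5-j/j spikelets. The heterozygote stood between the homozygotes there, 4.06-fold below f5-j/j and 2.30-fold above f5-i/i, and was listed against f5-j/j alone. At LOC_Os04g43220, described as SDIR1, a ligase of abscisic acid signalling in Arabidopsis, models LOC_Os04g43220.2 and LOC_Os04g43220.3 had the same length and identical averages, so they are 1 measurement shown under both names. They averaged 3.80 in f5-i/j spikelets, stood at the floor in f5-i/i spikelets and averaged 4.93 in f5-j/j spikelets.

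LOC_Os01g56520.2 carried 2 descriptions, with E-values of 1e-07 and 7e-07. The first is RFWD3, by name a DNA repair ligase of mammals, and the second is DHX36, an RNA helicase. Whether it is a ligase is thus uncertain. It stood at the floor in f5-i/j spikelets and averaged 3.47 in f5-i/i spikelets. LOC_Os07g46700.3 carried 3 descriptions, RAD5, UHRF1 and makorin, with E-values of 3e-06, 5e-06 and 6e-06, so it can be named only as a possible ligase. It averaged 8.51 in f5-i/j spikelets and 33.4 in f5-j/j spikelets, a 3.93-fold difference.

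The single F-box locus went both ways between its transcript models. LOC_Os04g42470 is described as F-box and leucine-rich repeat protein 14 (FBXL14) by a distant match, and F-box proteins of this kind bind the targets of cullin ligases. Model LOC_Os04g42470.5 averaged 17.5 in f5-i/j spikelets, 0.617 in f5-i/i spikelets and 17.1 in f5-j/j spikelets. It was 28.4-fold higher in the heterozygote than in f5-i/i spikelets and 27.8-fold lower in f5-i/i spikelets than in f5-j/j spikelets. Model LOC_Os04g42470.2 stood at the floor in f5-i/j spikelets, averaged 3.70 in f5-i/i spikelets and stood at the floor in f5-j/j spikelets. Thus f5-i/j and f5-j/j differed by 1.02-fold on the first model and were both undetected on the other, whereas f5-i/i had more of the other. The coding lengths of the models are 1617 and 1749 bases, and how reads were divided between them is an estimate of the authors' counting.

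**Figure D2:**
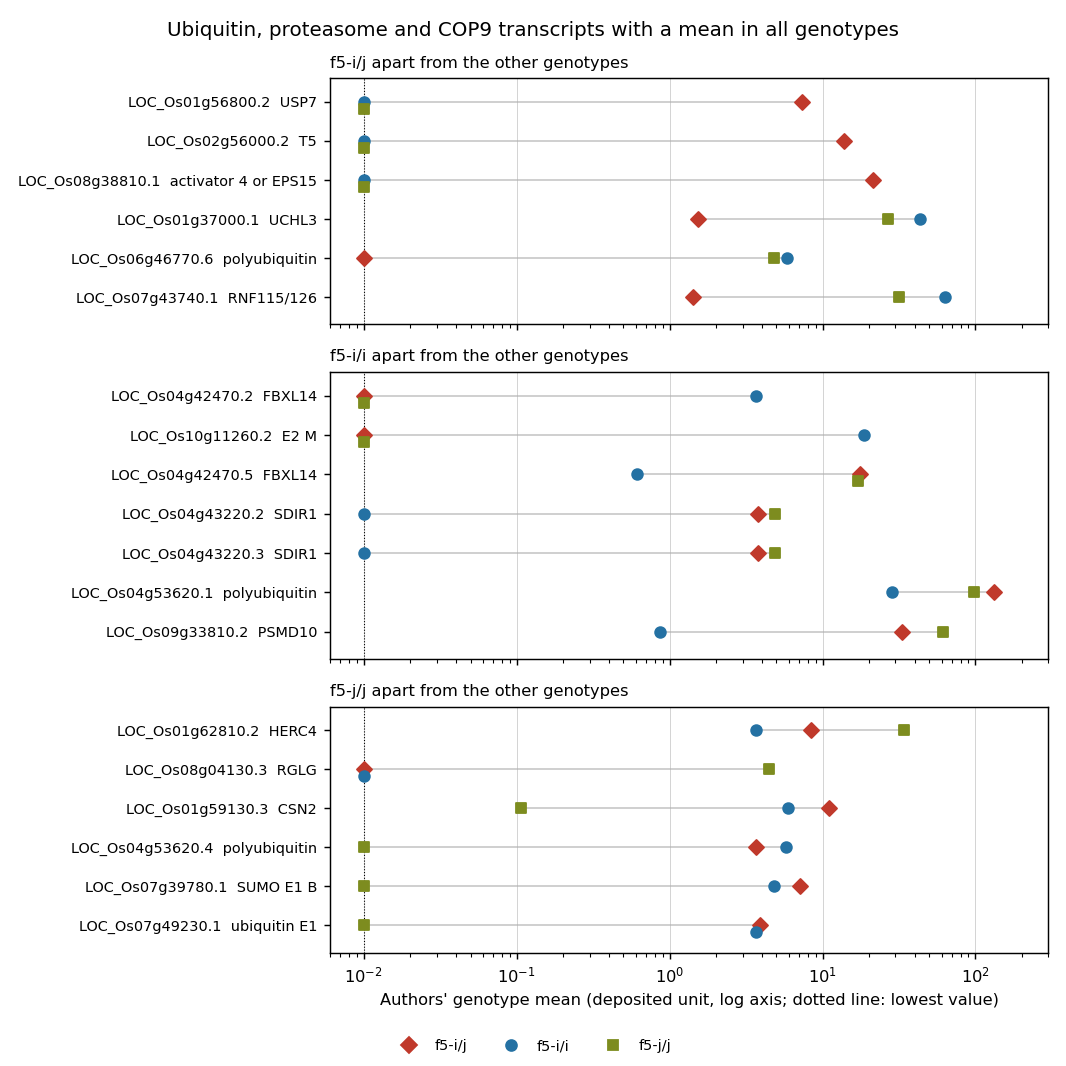
Points show the authors' mean of each genotype on a log axis, in the deposited unit, for the 19 transcripts with 3 averages, grouped by the genotype that was listed against both others. Points at nearly the same value are shifted downwards, and in the middle panel f5-i/i lies at 3.70 on LOC_Os04g42470.2 and at 0.617 on LOC_Os04g42470.5, on opposite sides of the other genotypes.

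Of the COP9 signalosome, 2 subunits were listed. The transcript described as subunit 2 (CSN2, LOC_Os01g59130.3) averaged 11.1 in f5-i/j spikelets, 5.95 in f5-i/i spikelets and 0.107 in f5-j/j spikelets. It was 104-fold higher in f5-i/j and 55.8-fold higher in f5-i/i spikelets than in f5-j/j, while the heterozygote differed from f5-i/i by 1.86-fold and was not listed against it. The f5-j/j average is so near the floor that no single f5-j/j sample can have exceeded 0.300 if no sample lies under 0.01, and both folds are uncertain in size. Its description rests on a distant match (E-value 4e-09). Subunit 7 (CSN7, LOC_Os07g30840.1), a close match to a rice entry, stood at the floor in f5-i/j spikelets and averaged 3.59 in f5-j/j spikelets, which is the opposite direction. The catalytic site that removes NEDD8 lies in another subunit, which was not among the members.

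The 6 loci placed with the proteasome held 3 close matches, all of subunits of the regulatory particle that recognises and unfolds marked proteins. T5 (LOC_Os02g56000.2), an ATPase of this particle, averaged 13.8 in f5-i/j spikelets and stood at the floor in f5-i/i spikelets and in f5-j/j spikelets. N2 (LOC_Os08g12820.2), a scaffold subunit, averaged 8.14 in f5-i/i spikelets and stood at the floor in f5-j/j spikelets. N12 (LOC_Os07g25420.2), a subunit of the lid, averaged 27.2 in f5-i/i spikelets and 5.11 in f5-j/j spikelets, a 5.32-fold difference. The listed models of N2 and N12 were thus both lower in f5-j/j, with the heterozygote not known. That of T5 was detected in the heterozygote alone. Other models of these loci, if any, were not listed, so these values do not show the loci as a whole. No subunit of the proteolytic core was among the members.

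The other 3 proteasome loci were distant matches. LOC_Os09g33810.2, described as non-ATPase regulatory subunit 10 (PSMD10), which in mammals is an ankyrin-repeat protein that helps to assemble the regulatory particle, averaged 33.1 in f5-i/j spikelets, 0.870 in f5-i/i spikelets and 61.1 in f5-j/j spikelets. It was 38.0-fold higher in f5-i/j spikelets than in f5-i/i and 70.3-fold lower in f5-i/i spikelets than in f5-j/j, so f5-i/i was the low genotype. LOC_Os08g38810.1 and LOC_Os11g06980.1 each carried the same pair of descriptions, proteasome activator subunit 4 and EPS15, a protein of endocytosis, so whether either belongs to the proteasome is uncertain. LOC_Os08g38810.1 averaged 21.4 in f5-i/j spikelets and stood at the floor in f5-i/i spikelets and in f5-j/j spikelets. Its probability, 0.980 in the authors' deposited tables for the heterozygote against either homozygote, was the highest of the members. LOC_Os11g06980.1, whose better match was to EPS15, averaged 3.01 in f5-i/j spikelets and 25.6 in f5-j/j spikelets, an 8.53-fold difference. The pair thus went opposite ways in the heterozygote relative to f5-j/j.

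Of 3 deubiquitinases, 2 were higher and 1 lower in the heterozygote than in f5-i/i spikelets in the authors' deposited table. There 30.9% of all loci were higher and 26.1% lower. Against f5-j/j spikelets 1 was higher and 1 lower in the heterozygote, beside 19.1% and 22.8% of all loci. With so few loci these counts are not read as a direction. OTUB1 (LOC_Os08g42540.2), a close match, averaged 32.5 in f5-i/j spikelets and 6.91 in f5-i/i spikelets, a 4.70-fold difference. The transcript described as ubiquitin carboxyl-terminal hydrolase 7 (USP7, LOC_Os01g56800.2) averaged 7.33 in f5-i/j spikelets and stood at the floor in both homozygotes. The transcript described as ubiquitin carboxyl-terminal hydrolase L3 (UCHL3, LOC_Os01g37000.1) averaged 1.53 in f5-i/j spikelets, 43.5 in f5-i/i spikelets and 26.8 in f5-j/j spikelets. It was low in the heterozygote, by 28.4-fold against f5-i/i and 17.5-fold against f5-j/j, and the homozygotes differed by 1.63-fold without being listed. Both hydrolases were distant matches.

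**Figure D3:**
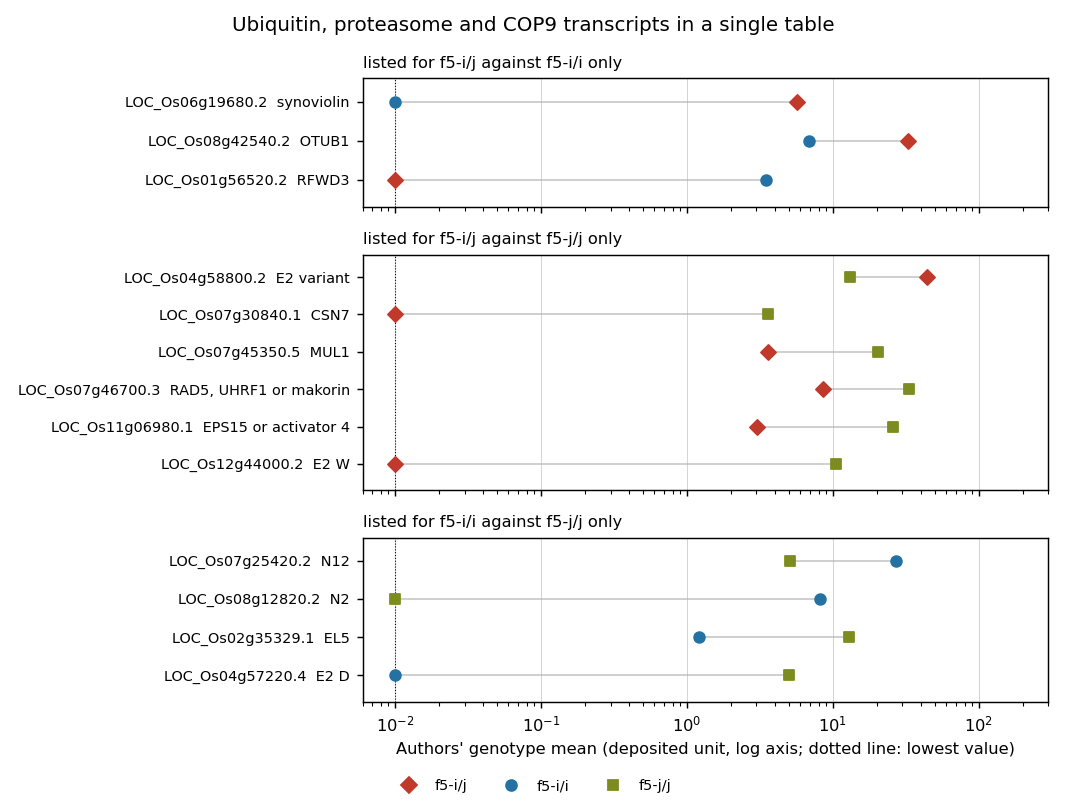
Points show the authors' mean of the compared genotypes on a log axis, in the deposited unit, for the 13 transcripts found in a single table, in which the average of the genotype left out is not known. In the middle panel the E2 variant is the only transcript of 6 that is higher in f5-i/j spikelets than in f5-j/j.

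The 19 transcripts with 3 averages are 18 measurements when the identical SDIR1 models are counted once, and these split evenly by genotype. The heterozygote stood apart from both homozygotes in 6 of them, 3 high and 3 low. The f5-i/i spikelets stood apart in 6, 2 high and 4 low, and the f5-j/j spikelets in 6, 2 high and 4 low. Each genotype thus stood apart in 33.3% of these 18 member measurements. Over all 377 measurements in exactly 2 tables, counted in the same way, the shares were 34.0% with f5-i/j apart, 43.0% with f5-i/i apart and 23.1% with f5-j/j apart. The heterozygote was high in 16.7% of the 18 and low in 16.7%, beside 10.6% and 23.3% of the 377. For f5-i/i spikelets these shares were 11.1% high and 22.2% low, beside 17.5% and 25.5% of the 377. For f5-j/j spikelets they were 11.1% high and 22.2% low, beside 11.1% and 11.9% of the 377. The 3 transcripts high in the heterozygote, T5, hydrolase 7 and LOC_Os08g38810.1, stood at the floor in both homozygotes. Of the 3 low ones, the RNF115 or RNF126 transcript and hydrolase L3 were still detected in the heterozygote, and polyubiquitin LOC_Os06g46770.6 was not. Both listings behind such a standing apart use the same averages of the genotype in question, so it is a description.

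**Figure D4:**
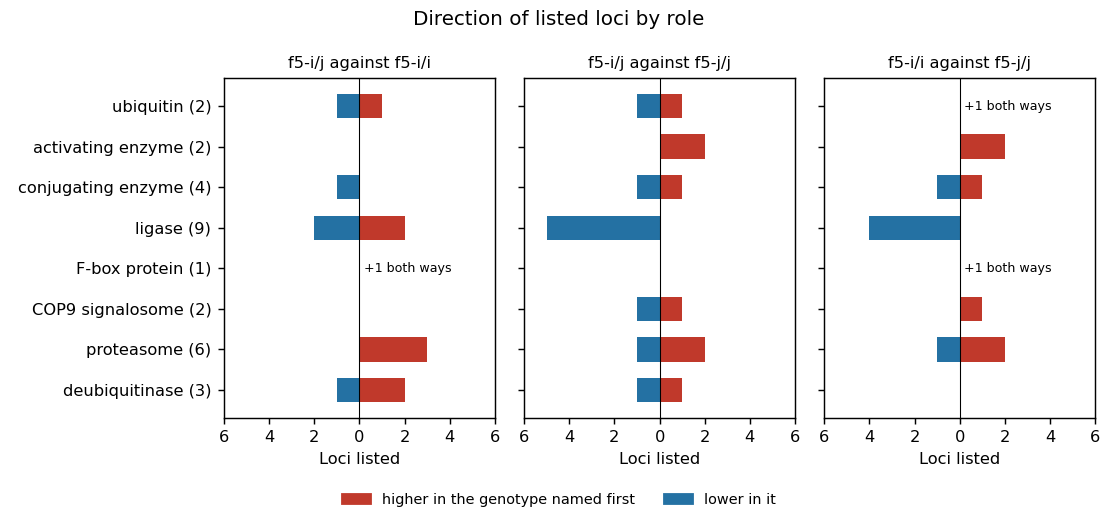
Bars show the number of loci of each role listed higher or lower in the genotype named first in the authors' deposited tables, with the number of loci per role in brackets and loci going both ways written beside the axis. Ligases have 5 and 4 of 9 loci on the lower side in the comparisons with f5-j/j, where 22.8% and 27.9% of all loci were lower, and the activating enzymes, only 2 loci, lie on the higher side, where 19.1% and 23.1% of all loci were.

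Other degradation genes in the authors' deposited tables were few. By words for RING, U-box, SKP1, BTB and kelch proteins or for ubiquitin outside the KEGG Orthology text, 3 loci were found. Of these, 2 were higher and 0 lower in the heterozygote against f5-i/i spikelets, 0 higher and 1 lower in it against f5-j/j spikelets, and 0 higher and 2 lower in f5-i/i spikelets against f5-j/j spikelets. Among all loci, in the same order, 30.9% were higher and 26.1% lower, 19.1% and 22.8%, and 23.1% and 27.9%. RNF114 (LOC_Os01g73960.2), a RING finger protein, averaged 21.8 in f5-i/j spikelets and 4.16 in f5-i/i spikelets. The kelch-like LOC_Os01g36950.3 averaged 3.62 in f5-i/j spikelets, stood at the floor in f5-i/i spikelets and averaged 18.3 in f5-j/j spikelets. For the p97 pathway, which pulls marked proteins out of membranes, FAS-associated factor 2 (LOC_Os09g35710) was the single locus found. Its model LOC_Os09g35710.1 averaged 23.2 in f5-i/j spikelets and 5.61 in f5-j/j spikelets. Model LOC_Os09g35710.2 went the other way, with 0.0233 in f5-i/j spikelets and 12.4 in f5-j/j spikelets, and it averaged 7.52 in f5-i/i spikelets. No locus was found by words for SUMO, NEDD8 or autophagy outside the members.

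Words for proteases found 12 loci, of which 4 are described as inhibitors. They were 3 higher and 3 lower in the heterozygote against f5-i/i spikelets, 4 higher and 3 lower in it against f5-j/j spikelets, and 1 higher and 2 lower in f5-i/i spikelets against f5-j/j spikelets in the authors' deposited tables. The shares of all loci were 30.9% and 26.1%, 19.1% and 22.8%, and 23.1% and 27.9%. These counts pool inhibitors with proteases, so they give no direction for proteolysis. Acylaminoacyl-peptidase (LOC_Os10g28030.1), which trims blocked peptides, averaged 4.12 in f5-i/j spikelets, 4.98 in f5-i/i spikelets and 0.0233 in f5-j/j spikelets. The KDEL-tailed endopeptidase LOC_Os11g14900.1 averaged 2.69 in f5-i/j spikelets and 17.6 in f5-j/j spikelets, and the other listed models of its locus had identical averages. The other KDEL-tailed endopeptidases listed in that comparison were also lower in the heterozygote. LOC_Os04g55650.2 averaged 21.7 in f5-i/j spikelets and 88.7 in f5-j/j spikelets, and LOC_Os08g44270.1 averaged 7.32 and 33.6. LOC_Os01g03680.1, described only by endopeptidase inhibitor activity, averaged 8.70 in f5-i/j spikelets and 0.437 in f5-i/i spikelets. LOC_Os12g36210.1, with the same activity, averaged 38.0 in f5-i/j spikelets, 0.367 in f5-i/i spikelets and 8.74 in f5-j/j spikelets.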

How the data were processed

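Spikelet polyA RNA of 9 samples was sequenced on an Illumina instrument, per the labels' protocols. The submitters' processing notes name BWA, Bowtie and RSEM. Nothing on their versions and roles, the build, the normalization or the differential expression program is stated in the sources used here. The deposited signal is the authors' mean of the samples of a genotype, the deposited log2 ratio is that of 2 such means (checked by recomputing it), and the deposited probability is a score. Genotypes of columns came from the table names, and the means of a transcript in 2 tables differed by 0.

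Members were found by words and collapsed to loci, with loci whose models went opposite ways counted on their own. Folds are ratios of the authors' means. With no values of single samples, no test was made, and depth is unknown. All 32 member transcripts are described. Of the other degradation genes, found by words without the loci the member search left out, the 2 with the largest ratio per class and comparison with both means above the floor of 0.01 are named; the others named, LOC_Os09g35710.1 among them, were chosen after their values were seen. Activating enzymes are a role of their own, split from the other ubiquitin-related proteins of the plan. The members and lists were chosen with earlier results of these data known. The reference table (assembly ASM3414082v1) carries other locus identifiers; 6 of the 32 transcripts had a gene number in it. Python 3.11.15, pandas 2.3.3 and matplotlib 3.10.9 were used.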

Additional observations from a re-analysis of the deposited data

How the results depend on the processing

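Counts are given as member loci higher and lower in the genotype named first, for f5-i/j spikelets against f5-i/i (8 and 5), then f5-i/j spikelets against f5-j/j (8 and 10), then the homozygotes, f5-i/i spikelets against f5-j/j (6 and 6). With both means above the floor of 0.01 they were 4 and 2, 2 and 6, and 2 and 5. With a probability of at least 0.9 they were 3 and 2, 5 and 1, and 2 and 1, beside 47 and 57, 44 and 49, and 52 and 46 among all loci. With close matches alone, an alternative chosen after seeing the data, they were 4 and 2, 5 and 5, and 5 and 3. Fewer transcripts entered each of these counts. Against f5-j/j, all loci were 139 higher and 166 lower in the heterozygote, a split near that of the members, and 44 and 49 with the stricter probability, so the members' direction there is not read. An absolute log2 ratio of at least 2, transcripts in place of loci, words in any annotation column, and a difference of at least 1 in log2(mean + 1) left every count within 1.5 times. No paired analysis was possible because the deposited tables give genotype means and no values of numbered samples, and for the same reason no replicate could be left out. Depth is unknown, so a value at the floor is no proof of absence.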

Other observations

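Member loci lay on 10 of the 12 chromosomes by their identifiers, and the search left out chromosome 5 by its rule. Chromosome 7 held 7 of the 29 (24.1%), beside 8.01% of all listed loci outside chromosome 5. Chromosomes 1 and 4 held 5 each (17.2%), beside 13.9% and 9.40% of those loci. Chromosome 3, with 105 of all listed loci, held none. These are descriptions without a test. The median coding length was 1147.5 bases over the member transcripts and 916.5 bases over all listed transcripts.

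All 2071 genotype means in the tables were whole hundredths when multiplied by the number of samples, within 1e-06 of a hundredth, which is what a mean of 3 values with 2 decimals gives. On that reading, and with no sample under 0.01, the f5-i/i mean of LOC_Os04g42470.5 allows no single sample above 1.83, and that of LOC_Os09g33810.2 none above 2.59.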
